A study of Danio rerio with 6 samples.

Results

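The sodium pump, Na+/K+ ATPase, was examined through the genes of its alpha and beta subunits in eyes of zebrafish embryos treated with all-trans retinoic acid (RA). Members were all probe sets on the array whose only gene symbol begins with atp1a or atp1b followed by a digit. This rule gave 19 probe sets for 13 genes, 7 alpha and 6 beta, of 8793 genes that the array measured through a single symbol. Wild-type embryos of the outbred SciH strain were kept in 0.3 µM RA, or in the 0.1% DMSO carrier alone, from 48 to 75 hpf. The 6 arrays were 3 DMSO and 3 RA arrays, each of a pool of 64 dissected eyes, and each of 3 clutches (numbered 1, 3 and 4) was divided between the treatments. The pools were whole eyes, which hold lens, pigment epithelium and other tissue besides the retina.

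The pump moves sodium out of the cell and potassium in at the cost of ATP. The alpha subunit is the catalytic chain that binds ATP and the ions, the beta subunit is a glycoprotein needed for folding and for delivery to the membrane, and small FXYD proteins adjust the activity of the assembled pump. In the mammalian retina, pumps of the alpha3 type with beta2 are abundant in photoreceptor inner segments, where they extrude the sodium carried in by the dark current. Alpha1 with beta1 is the common pair of epithelia. Zebrafish have additional copies of many of these genes, among them a tandem group of alpha1 genes that carry the names atp1a1a.1 to atp1a1a.5.

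The intensities used were those the authors deposited. They are linear signals, every array having been scaled to the same trimmed mean of 125 and medians between 39.5 and 43.5. A signal above 13.2, the highest value reached by any of 87 controls that match no zebrafish transcript, was taken as above background. Signals of different probe sets depend on the probes as well as on the RNA, so the level of a subunit was not set against that of another. RA and DMSO arrays were compared on the log2 scale with limma, and a probe set was called at a false discovery rate (FDR) of 10% over 15555 probe sets. The 3'/5' ratio of the muscle actin controls, a sign of RNA quality, moved with treatment: it was 64.5, 20.2 and 12 in DMSO eyes of clutches 1, 3 and 4 and 7.65, 11.7 and 5.30 in RA eyes, every RA array being below every DMSO array. The same ratio for gapdh overlapped, at 1.48 to 2.58 in DMSO and 1.32 to 1.75 in RA eyes. Their part in the results was not tested. The DMSO array of clutch 1 was highest in both ratios. That array was the lowest of the 6 for 30.8% and the highest for 27.2% of the 9791 probe sets above background throughout.

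RA treatment raised 3 genes of the pump, and none was called lower. They were the alpha genes atp1a1a.2 and atp1a1a.3 and the beta gene atp1b1b, with log2 fold changes of 1.68 to 1.90. They made up 3 of 19 probe sets (15.8%), against 0.604% of all probe sets called higher and 0.238% called lower. The remaining 16 probe sets did not pass. Over the 13 genes the median log2 fold change was -0.09, against -0.02 over all 8793 genes, so the center of the family lay close to that of the array. The median was 0.04 for the 7 alpha genes and -0.11 for the 6 beta genes. The medians were the same without the undetected atp1a1a.4 and atp1a1a.5 (-0.09 over 11 genes and 0.04 over 5 alpha genes). All RA arrays lay above all DMSO arrays for 3 member probe sets and below them for 1, compared with 6.98% and 8.28% of all probe sets. With the clutch as a block in the limma fit, 0 of the 19 probe sets passed, although the same number, 3, had an unadjusted p under 0.05.

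atp1a1a.3, a catalytic subunit of the alpha1 tandem group, was raised from the edge of background. Its signals were 13.2, 13.5 and 10.6 in DMSO eyes of clutches 1, 3 and 4, and 50.7, 40.3 and 48.1 in RA eyes of the same clutches. The groups did not overlap, and 1 of 3 DMSO arrays but 3 of 3 RA arrays exceeded background. The mean went from 12.4 ± 1.60 to 46.4 ± 5.38 (SD, n = 3 each), a log2 fold change of 1.90 (SE 0.19, 95% confidence interval 1.45 to 2.35), or 3.73-fold (limma, adjusted p = 0.016). Measured from background, with DMSO signals below it raised to that level, the fold was 3.47. The increase within clutches was 1.95, 1.57 and 2.18 on the log2 scale. The call held when any single array was left out (limma, adjusted p 0.050 to 0.097) and ended once the clutch was added as a block (limma, adjusted p = 0.13). With 16 added to every signal before the logarithm, the log2 fold change was 1.13 (limma, adjusted p = 0.0059).

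Its neighbor atp1a1a.2, another alpha1-type catalytic subunit, rose by a similar amount. DMSO signals were 14.7, 8.36 and 10.9, of which 1 was above background, and RA signals were 45.3, 32.1 and 35.5, all above it. The lowest RA array was well above the highest DMSO array, that of clutch 1. Means were 11.3 ± 3.18 and 37.6 ± 6.85 (SD, n = 3 each), with a log2 fold change of 1.76 (SE 0.26, 95% confidence interval 1.12 to 2.39), or 3.38-fold (limma, adjusted p = 0.071). From background the fold was 2.72. The call was less firm than that of atp1a1a.3: it held in 1 of 6 fits with an array left out, the fit without the DMSO array of clutch 1 (limma, adjusted p = 0.069, range over the 6 fits 0.069 to 0.24). It was also lost with the clutch as a block (limma, adjusted p = 0.11) and with quantile normalization (limma, adjusted p = 0.11). With 16 added to the signals its log2 fold change was 0.97 (limma, adjusted p = 0.029).

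The other tandem alpha1 genes were not detected. atp1a1a.4 gave 3.04, 2.36 and 4.74 in DMSO eyes and 6.05, 3.60 and 5.68 in RA eyes. atp1a1a.5 gave 1.69, 0.231 and 1.23 in DMSO eyes and 0.492, 1.33 and 0.291 in RA eyes. All of these signals were below background, so their folds are not given. In the RefSeq annotation atp1a1a.4, atp1a1a.1, atp1a1a.2, atp1a1a.3 and atp1a1a.5 follow each other in this order, interrupted only by a long noncoding RNA gene after atp1a1a.1. atp1a1a.1 was not analysed here because no probe set carries it as a single symbol. The copies are alike in sequence, so cross-hybridization between atp1a1a.2, atp1a1a.3 and their relatives is possible and their values are uncertain to that extent.

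atp1b1b, a beta1-type subunit known from the skin ionocytes of zebrafish, was the beta gene that rose. It was above background on all arrays, at 27.8, 22.8 and 24.0 in DMSO eyes and 65.9, 71.2 and 106.8 in RA eyes. The DMSO arrays lay close together, while the RA array of clutch 4 was well above the other RA arrays. The mean rose from 24.8 ± 2.62 to 81.3 ± 22.3 (SD, n = 3 each), a log2 fold change of 1.68 (SE 0.23, 95% confidence interval 1.11 to 2.25), or 3.21-fold (limma, adjusted p = 0.057). Within clutches the increase was 1.24, 1.64 and 2.16. The call rested on all 6 arrays, since leaving out any of them gave a limma adjusted p between 0.12 and 0.20, with the log2 fold change between 1.47 and 1.82. It did not hold with clutch blocked (limma, adjusted p = 0.21) or with signals floored at background (limma, adjusted p = 0.13). The floor left the signals of atp1b1b itself and its log2 fold change of 1.68 unchanged, as all of them were above background. atp1b1b and atp1a1a.3 belong to the list of RA-responsive genes that the study drew from these same arrays, so their calls are no independent evidence. atp1a1a.2 is not on that list.

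**Figure D1:**
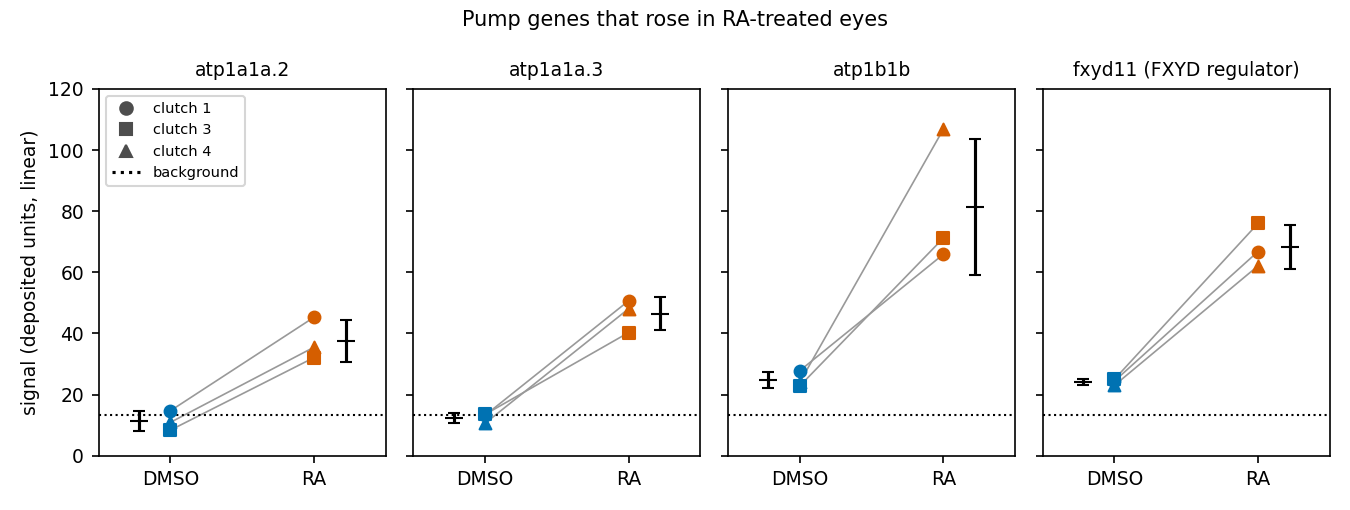
Signals (linear, deposited units) of atp1a1a.2, atp1a1a.3, atp1b1b and the FXYD gene fxyd11 in each DMSO and RA array, with arrays of a clutch joined by lines, means ± SD beside them and background (13.2) dotted. In each panel all RA arrays lie above all DMSO arrays, and the DMSO signals of both alpha genes sit at or below background apart from clutch 1 of atp1a1a.2 and clutch 3 of atp1a1a.3.

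The remaining alpha genes were detected on all arrays and did not pass. atp1a1b, an alpha1-type gene outside the tandem group, gave 299.6, 424 and 344 in DMSO eyes and 330.1, 298 and 274 in RA eyes. The ranges overlapped, and RA was higher than DMSO in clutch 1 and lower in clutches 3 and 4. The mean was 356 ± 63.0 in DMSO and 300.9 ± 27.9 in RA eyes (SD, n = 3 each), a log2 fold change of -0.23 (95% confidence interval -0.70 to 0.24; limma, adjusted p = 0.85).

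The alpha3 genes encode the catalytic subunit characteristic of neurons. The brighter of the probe sets for atp1a3a gave 786, 681 and 699 in DMSO eyes and 765, 789 and 669 in RA eyes, a difference smaller than the spread between arrays of a group (log2 fold change 0.04, 95% confidence interval -0.36 to 0.43; limma, adjusted p = 0.99). The dimmer probe set of the same gene ran from 235 to 345 in DMSO and from 294 to 373 in RA eyes (log2 fold change 0.27, 95% confidence interval -0.24 to 0.77; limma, adjusted p = 0.83). atp1a3b gave 80.4, 159.8 and 128 in DMSO and 83.6, 124 and 131 in RA eyes, low in both treatments of clutch 1. Its log2 fold change was -0.09 (95% confidence interval -0.87 to 0.68; limma, adjusted p = 0.98).

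Among the beta genes, atp1b1a is the counterpart of atp1b1b. The brighter of its probe sets gave 1214, 1331 and 1149 in DMSO eyes and 1242, 1089 and 1077 in RA eyes (log2 fold change -0.12, 95% confidence interval -0.51 to 0.27; limma, adjusted p = 0.93). The other probe set of atp1b1a was more variable, at 1173, 781 and 1150.3 in DMSO and 799.8, 782 and 1692 in RA eyes. It fell by 0.55 in clutch 1 and rose by 0.56 in clutch 4 on the log2 scale, with a group difference of 0.00 and a confidence interval of -0.87 to 0.87.

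atp1b2a and atp1b2b encode beta2-type subunits, known in mammals also as an adhesion molecule of glia. atp1b2a was read by 4 probe sets. The brightest gave 2144, 1593 and 1773 in DMSO eyes and 1716, 1798 and 2178 in RA eyes (log2 fold change 0.05, 95% confidence interval -0.42 to 0.52; limma, adjusted p = 0.98). The other 3 had log2 fold changes of -0.06, 0.11 and 0.21, with limma adjusted p between 0.93 and 0.98. All 4 probe sets overlapped between groups. They did not move together in clutch 1, where RA minus DMSO was -0.32, -0.45, -0.01 and 0.54 on the log2 scale. atp1b2b was dimmer and more variable, at 47.7, 96.1 and 133.8 in DMSO and 63.5, 72 and 110.4 in RA eyes. Its log2 fold change was -0.09, with the widest interval of the detected members, -1.12 to 0.94 (limma, adjusted p = 0.99).

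atp1b3b, a beta3-type subunit, was the member whose RA arrays all lay below its DMSO arrays. DMSO signals were 727, 695 and 561, and RA signals were 473, 467 and 543. The decrease was 0.62 and 0.57 on the log2 scale in clutches 1 and 3 but 0.05 in clutch 4. Means were 661 ± 87.9 and 495 ± 42.1 (SD, n = 3 each), a log2 fold change of -0.41 (SE 0.18, 95% confidence interval -0.85 to 0.02) that did not pass (limma, adjusted p = 0.59). Its counterpart atp1b3a gave 431, 582 and 470.2 in DMSO and 425, 425 and 465 in RA eyes (log2 fold change -0.16, 95% confidence interval -0.60 to 0.27; limma, adjusted p = 0.90). A dim second probe set of atp1b3a had a log2 fold change of -0.26 (95% confidence interval -0.97 to 0.46; limma, adjusted p = 0.91).

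The uncalled members above background on all arrays comprised 14 probe sets of 8 genes. Their log2 fold changes ran from -0.41 to 0.27 and none had an unadjusted p under 0.05 in limma. For 13 of the 14 the 95% confidence interval lay within a log2 change of 1 in either direction. The exception was atp1b2b. A change within a gene's own interval was not resolved with 3 pools per group. Of all 19 member probe sets, 15 (9 genes) were above background on every array, 2 on some arrays and 2 on none.

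**Figure D2:**
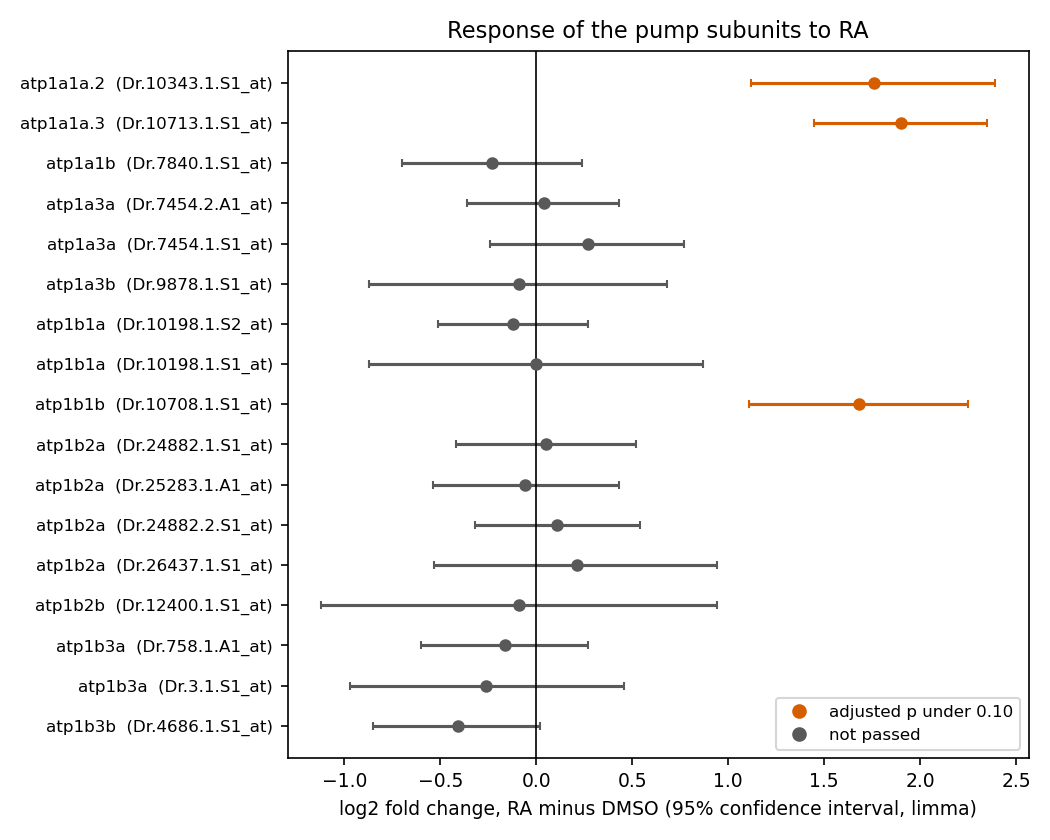
Log2 fold change, RA minus DMSO, of the 17 member probe sets above background on at least some arrays, with 95% confidence intervals from limma. The 3 called probe sets lie between 1.68 and 1.90, and the intervals of the other 14 include 0.

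**Figure D3:**
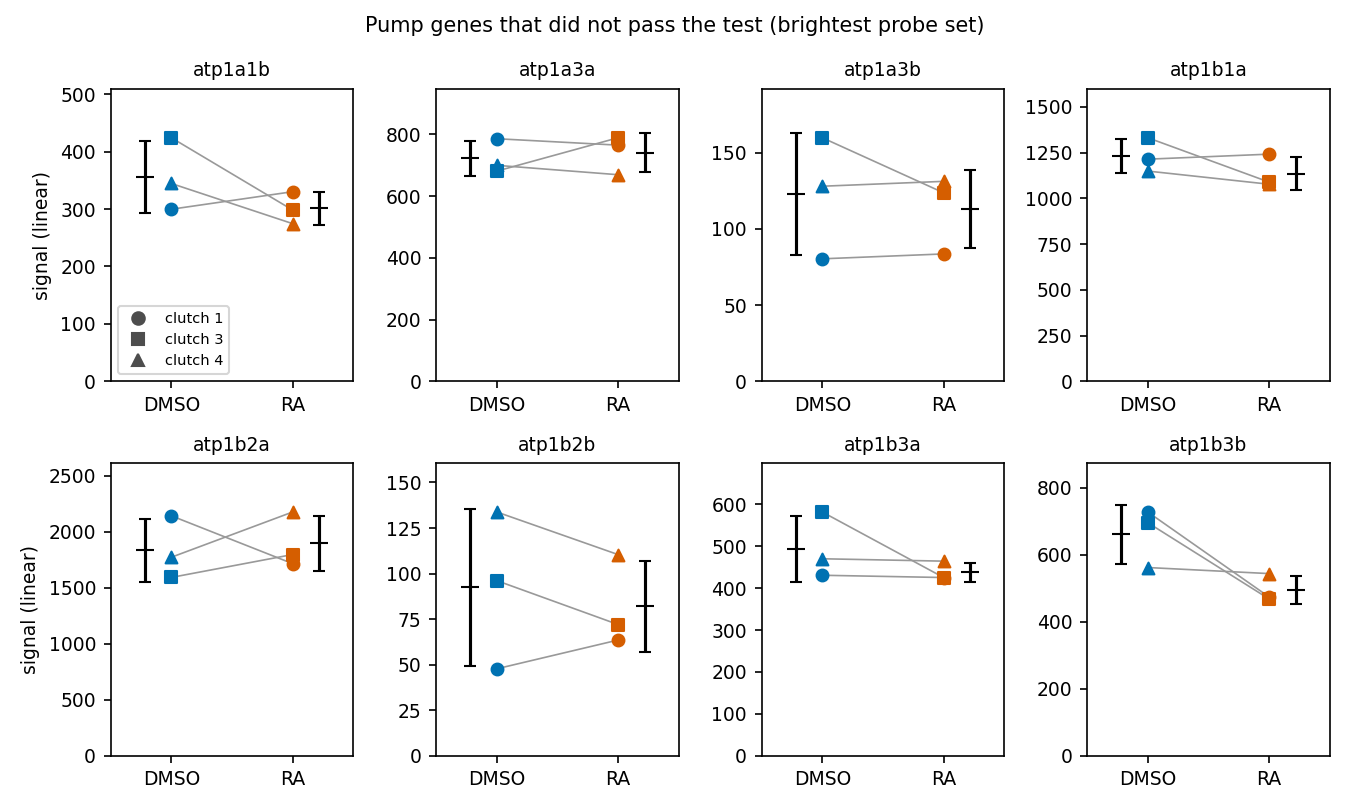
Signals (linear, deposited units) of the brightest probe set of the 8 detected pump genes that did not pass, in each DMSO and RA array, with arrays of a clutch joined and means ± SD beside them. The groups overlap in every panel except that of atp1b3b, where the RA signals of 467 to 543 lie below the DMSO signals of 561 to 727.

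Whether related subunits responded differently was asked with the ratio of their brightest probe sets on the same array, in 5 gene pairs. Only the change in a ratio is informative, since its level depends on the probes. The log2 ratio of atp1a1a.3 to atp1a1b was higher by 2.13 in RA eyes (1.81, 2.08 and 2.51 in clutches 1, 3 and 4), and that of atp1b1b to atp1b1a by 1.80 (1.21, 1.93 and 2.25). Neither overlapped between groups, and each reached the smallest p that an exact two-sided permutation test of 3 against 3 arrays can give, 0.1, or 0.167 after Benjamini-Hochberg adjustment over the 5 pairs. This test therefore cannot fall below 0.05 with 3 arrays per group. With 16 added to the signals both changes were 1.35. The ratio of atp1b3a to atp1b3b also did not overlap (change 0.25, exact permutation p = 0.1, adjusted 0.167), but the change was 0.60 in clutch 1 and 0.12 and 0.03 in the others, was 0.08 without the DMSO array of clutch 1, and overlapped when all probe sets of each gene were averaged (0.20, exact permutation p = 0.7). The ratios of atp1a3a to atp1a3b (0.13, exact permutation p = 0.8) and of atp1b2a to atp1b2b (0.14, exact permutation p = 0.9) overlapped between groups.

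**Figure D4:**
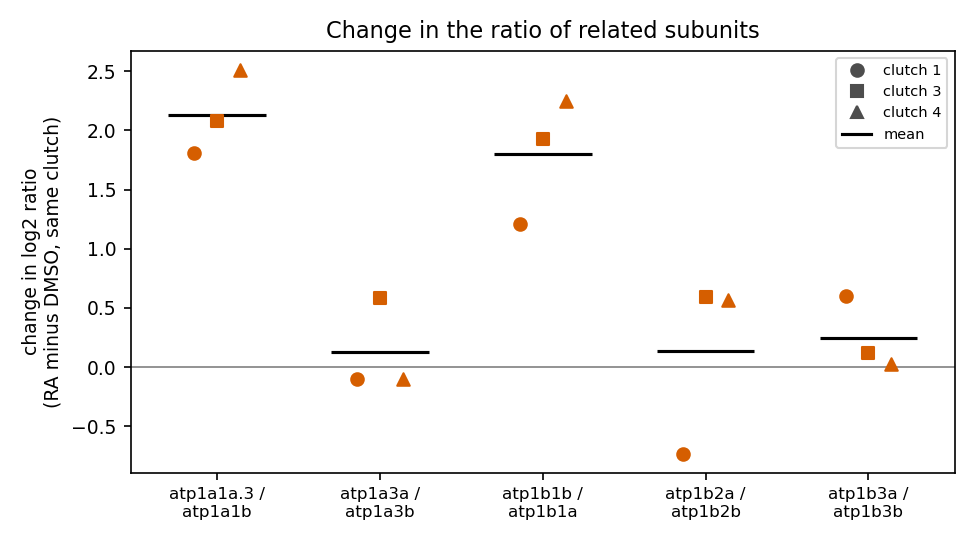
Change of the log2 ratio between related subunits, RA minus DMSO within each clutch (points), with the mean as a bar, for 5 gene pairs. The ratios of atp1a1a.3 to atp1a1b and of atp1b1b to atp1b1a rose in all 3 clutches, by 1.21 to 2.51, while the others range from -0.73 to 0.60.

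Genes that work with the pump were followed through lists of related genes. Of the FXYD regulators, 3 of 9 listed genes were measured and 1 rose. fxyd11, an FXYD protein known from the gill and skin ionocytes of zebrafish, gave 24.4, 25.0 and 23.0 in DMSO eyes and 66.8, 76.0 and 62.1 in RA eyes, all above background and without overlap. Its mean went from 24.1 ± 1.01 to 68.3 ± 7.10 (SD, n = 3 each), a log2 fold change of 1.50 (SE 0.16), or 2.82-fold (limma, adjusted p = 0.022, or 0.14 with the clutch as a block). fxyd3, with means of 191 ± 25.8 and 133 ± 31.9, had a log2 fold change of -0.54 (limma, adjusted p = 0.59). fxyd6l was nearly level, with means of 810.2 ± 20.8 and 787 ± 112 (limma, adjusted p = 0.98).

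No gene passed in the other transport lists, in limma or by SAM, the permutation method that the study's methods name. The P-type calcium pumps, relatives of the alpha subunit, had 8 measured genes with a median log2 fold change of -0.10 and 1 unadjusted p under 0.05, which 8.76% of all 15555 probe sets had. The V-type proton pump, which is unrelated in structure, had 14 measured subunits with a median of 0.00 and 0 such p values. Of a list of carriers driven by the sodium or potassium gradient, which also took in the anion exchangers slc4a1a and slc4a2a, 11 genes were measured. Of these, 3 were below background on all arrays. The median over the 11 genes was -0.03, with 1 such p value. The sodium/calcium-potassium exchanger slc24a4a, named here after its values were seen, stood highest among them with 186 ± 18.7 in DMSO and 325 ± 33.9 in RA eyes (SD, n = 3 each), a log2 fold change of 0.81 that did not pass (limma, adjusted p = 0.18). Corticosteroid-related and kinase genes, not all of them known to act on the pump, had 11 measured genes, a median of 0.28 and 2 such p values. Their summed signals did not overlap, at 2135 to 3067 in DMSO and 3101 to 3504 in RA eyes. The 2 genes, named after their values were seen, were sik1 (log2 fold change 0.77; limma, adjusted p = 0.46) and tsc22d3 (0.60; limma, adjusted p = 0.39). The kinase sgk1 was nearly level (0.03; limma, adjusted p = 0.99). None of the 17 listed inward-rectifier potassium channels had a probe set of its own.

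**Figure D5:**
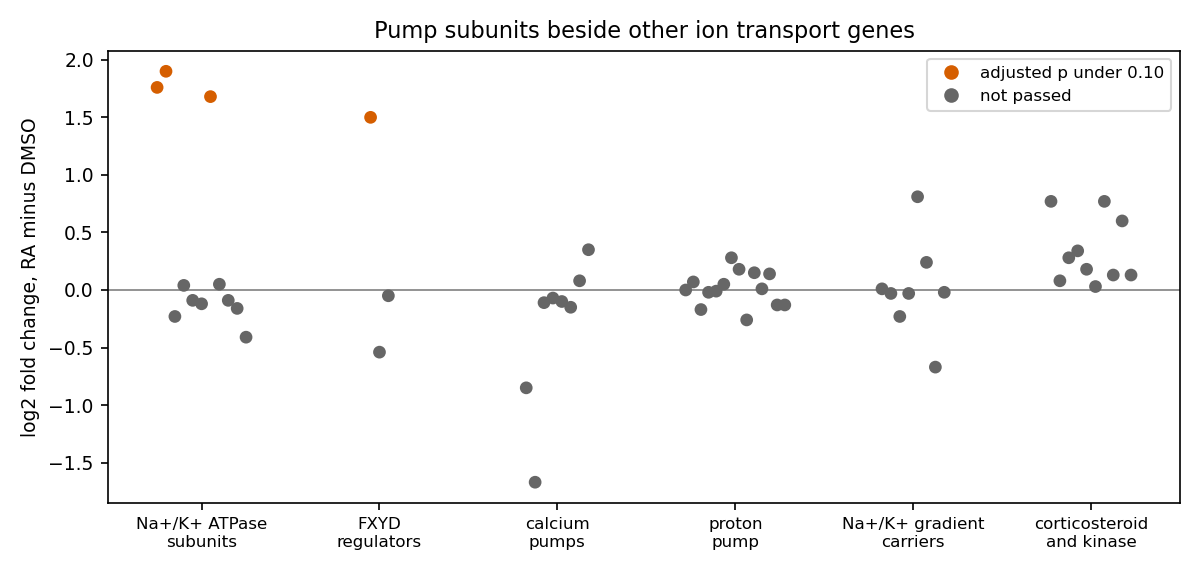
Log2 fold change, RA minus DMSO, of the pump subunits (brightest probe set of each gene) beside related transport lists, 1 point per gene above background on at least some arrays. Called genes (adjusted p under 0.10) are 3 pump subunits and fxyd11, and all points of the other lists are uncalled.

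Marker lists described which cells the pools held. Summed signals of 21 photoreceptor markers were 25190.3 to 28018 in DMSO and 26282 to 27969.7 in RA eyes, and those of 17 retinal neuron markers 9413 to 9708 and 9284 to 9905, so the defining genes of a retina were present at similar summed levels in both groups. Of the photoreceptor list, opn1lw1, a red cone opsin, passed (log2 fold change 5.32; limma, adjusted p = 0.0020). The photoreceptor sums include it, at 32.2 to 61.9 in DMSO and 1238 to 1914 in RA eyes. In the lens list cryaa, an alpha crystallin, passed (1.21; limma, adjusted p = 0.082, or 0.18 with clutch blocked). The lists for retinal neurons, Müller glia, pigment epithelium, skin and blood had 0 called genes in limma and by SAM, with 1 of 17, 6 of 14, 0 of 7, 1 of 21 and 3 of 12 genes at an unadjusted p under 0.05. Of all probe sets, 8.76% had such a p. The 6 Müller glia genes, named after their values were seen, moved in both directions. Log2 fold changes were 1.26 for gfap, 1.13 for vim, 0.79 for apoeb, 0.71 for s100b, -0.45 for rlbp1a and -0.57 for cahz (limma, adjusted p 0.15 to 0.53). In DMSO eyes s100b was below background on all arrays, and measured from background its fold was 1.43. The summed blood and vessel markers did not overlap between groups, at 2747 to 3529 in DMSO and 2176 to 2695 in RA eyes, while the median log2 fold change of the 12 was -0.01. The largest part of that sum on every array was the globin gene hbae3. It gave 1526 to 2280 in DMSO and 1078 to 1387 in RA eyes (log2 fold change -0.59; limma, adjusted p = 0.54). The highest DMSO sum, that of clutch 3, also held mpx at 945.7, against 101.8 and 106.3 in DMSO eyes of clutches 1 and 4. Muscle markers moved in both directions, with a median log2 fold change of 0.12 and 8 of 18 genes at an unadjusted p under 0.05. The parvalbumins pvalb1 fell by 1.91 and pvalb2 fell by 2.28 on the log2 scale (limma, adjusted p = 0.027 and 0.022, or 0.17 and 0.16 with clutch blocked). Of the others, tnnt3a at 1.06 and myog at 1.36 were the highest and did not pass (limma, adjusted p = 0.22 and 0.21). The summed muscle signal was 4962 to 6204 in DMSO and 4168 to 5146 in RA eyes. In pools of whole eyes, a change in the number of cells of a type and a change of RNA per cell cannot be told apart.

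Because atp1b1b and fxyd11 are known from ionocytes, markers of these cells of the embryonic skin were read beside them. Only 3 of 15 listed ionocyte markers were measured, with 0 called in limma or by SAM (1 at an unadjusted p under 0.05) and sums of 121 to 145 in DMSO and 123 to 156 in RA eyes. The sum was mostly slc4a4b, at 117 to 138 in DMSO and 112 to 144 in RA eyes, a bicarbonate carrier that other tissues also use. The ammonia channel rhcgb was at background on all arrays, and the chloride channel clcn2c gave 10, 3.46 and 5.35 in DMSO and 14.6, 9.47 and 11.2 in RA eyes, with 1 array above background. The ionocyte regulators foxi3a, foxi3b and gcm2 were not analysed here. Of 12 measured liver and kidney markers, 2 rose and the sum was 85.9 to 191 in DMSO and 201 to 490.3 in RA eyes. The phosphate carrier slc20a1a went from 13.4 ± 3.32 to 75.2 ± 5.37 (SD, n = 3 each; log2 fold change 2.52; limma, adjusted p = 0.010, or 0.088 with clutch blocked). Only 1 of its 3 DMSO signals was above background, and measured from background its fold was 5.23. The fibrinogen chain fgg was below background in DMSO eyes and gave 32.8, 213 and 198 in RA eyes. It was called on the signals as deposited (limma, adjusted p = 0.074, or 0.28 with clutch blocked). Measured from background, a fold that was not itself tested, it was at least 8.44-fold higher. That lower bound was 15.6, 6.11 and 6.33 without the RA array of clutch 1, 3 and 4, respectively. The other listed fibrinogen chains, fga and fgb, were below background on all arrays. The defining liver gene fabp10a and the kidney gene slc12a3 were below background on all arrays. Other markers of this list were detected. apoa2 was above background on all arrays, with means of 52.2 ± 33.9 in DMSO and 72.3 ± 52.5 in RA eyes (SD, n = 3 each; log2 fold change 0.42; limma, adjusted p = 0.93). apoa1a, tfa and pax2a were above background on some arrays. The sum of the list includes slc20a1a and fgg, and the mean of fgg was 1.61 in DMSO and 147.9 in RA eyes. What part these lists have in the rise of the pump genes was not tested.

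For each pump gene that rose, the genes most like it over the 6 arrays were found by Pearson correlation of log2 signals among 6676 detected genes. With 2 groups of 3 arrays such correlations mainly reflect the group difference and the shared arrays, and they are given as a description. The nearest to atp1a1a.3 were lxn, a carboxypeptidase inhibitor (r = 0.993), si:ch211-241e1.5 (0.991), the cardiac myosin light chain myl7 (0.990), igfbp1a (0.989) and the proteoglycan bgnb (0.987). The nearest to atp1a1a.2 were the erythropoietin gene epoa (r = 0.997), fibronectin fn1b (0.988), irf2bp2b (0.985), hoxb6a (0.983) and casp9 (0.983). The nearest to atp1b1b were the eye-field transcription factor six6a (r = 0.996), hoxb8a (0.988), the cytochrome P450 cyp2ad2 (0.988), the cathepsin ctsla (0.986) and the splicing factor srsf1b (0.982). None of the 3 lists shared a gene with another. Of the 15 genes, 8 were themselves called higher, against 0.604% of all probe sets. Their choice by correlation with called genes makes such calls likely, so the count is no separate result.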

How the data were processed

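Amplified RNA (80 ng at the start) of each pool of eyes was read on an Affymetrix Zebrafish Genome Array, 1 per pool. The authors deposited signal intensities. The methods describe RMA, but these intensities are linear and scaled to a common trimmed mean, with 2% cut at each end, and the summary method is not given in the sources used here. No raw arrays were used. The 15617 probe sets include 115 controls. The analysis dropped 62 of them and kept 53 whose names carry the zebrafish prefix Dr. Some of these 53 match no zebrafish transcript and are also among the 87 controls that set the background. Log2 intensities of 15555 probe sets were fitted with limma 3.58.1 (lmFit, eBayes; R 4.3.3), two-sided, with Benjamini-Hochberg adjustment, after tests on simulated data. Array number limits the precision: the median SE of a log2 fold change was 0.215. Symbols come from the platform's probe table (10802 probe sets with 1 symbol), and all 13 member symbols matched RefSeq by Entrez ID. Lists and ratios use the brightest probe set per gene.

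The methods state that each clutch was divided between treatments, and the sample titles use the numbers 1, 3 and 4 in both groups. Arrays with the same number were taken as the same clutch. After subtraction of group means, their correlation between treatments was 0.16 for clutch 1, 0.42 for clutch 3 and 0.28 for clutch 4 over 9791 probe sets. Correlations between different clutches are not given here, so the pairing rests on the methods and the titles. The main fit had no clutch term, since the study's methods name none.

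Members and lists were chosen with earlier results of these data known. Named genes were all members, the FXYD genes, up to 4 called genes per list, and the 5 genes most correlated with each called member; others are marked or are markers read beside a result. The alternatives were the clutch as a block, SAM written anew from its description with 20 relabelings, a variance trend, quantile normalization, median centring, 16 added to signals, a filter and a floor at background, FDRs of 5% and 20%, averaging the probe sets of each gene, and leaving out arrays or clutches. The study's other experiments were not analysed here.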

Additional observations from a re-analysis of the deposited data

How the results depend on the processing

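The 3 calls among the pump genes were made by limma without the clutch and also by SAM as written anew here, on the deposited signals. The study's own list, which its methods describe as made with SAM on RMA values, does not hold atp1a1a.2. The paired fit, with the clutch as a replicate block, called 0 of the 3 pump genes (3 at an unadjusted p under 0.05). It called 45 of all probe sets in place of 131, and changed no call among the other members. At an FDR of 5% 1 member (atp1a1a.3) and 73 probe sets passed, and at 20% 3 and 291. The count over all probe sets was 274 with a variance trend, 232 with 16 added to the signals and 302 with dim probe sets filtered out, with 3 members called each time. atp1a1a.2 and atp1a1a.3 were each above background on 1 of 3 DMSO arrays but on 3 of 3 RA arrays. Their calls after the background filter are therefore no separate support. Leaving out an array gave 1 to 2 member calls and 52 to 117 over all probe sets; leaving out a clutch gave 0 member calls and 54 (without clutch 1), 19 (without clutch 3) and 16 (without clutch 4) over all. The direction of the called members held throughout. Among uncalled members, leaving out an array turned the sign of log2 fold changes near 0. The range was -0.36 to 0.19 for the more variable probe set of atp1b1a, -0.51 to 0.23 for atp1b2b, -0.37 to 0.13 for atp1a3b, -0.01 to 0.11 for the brighter probe set of atp1a3a, and -0.05 to 0.17, -0.15 to 0.11 and -0.05 to 0.46 for the brightest, second and dimmest probe sets of atp1b2a. Leaving out a clutch turned the sign to -0.28 for that probe set of atp1b1a (clutch 4), 0.07 for atp1b2b, 0.05 for atp1a3b and -0.05 for atp1a3a (clutch 3), -0.01 and -0.07 for the brightest (clutches 3 and 4) and 0.14 for the second probe set of atp1b2a (clutch 1). The change in the ratio of atp1a3a to atp1a3b ranged from -0.13 to 0.47 and that of atp1b2a to atp1b2b from -0.20 to 0.68. Within clutches, the exact sign-flip test cannot give a p below 0.25. The cause of these shifts was not tested. Genes near background, such as atp1a1a.2 in DMSO eyes, are limited by signal as well as by array number.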
